A study of Arabidopsis thaliana with 12 samples.

Results

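The comparison described here set dehydrated seedlings of 46T, an Arabidopsis thaliana line that overexpresses WRKY46, a transcription factor, against dehydrated seedlings of the wild type (WT, accession Col-0). It used 6 of the 12 Affymetrix ATH1 arrays in the series, 3 labelled 46T-Dry and 3 labelled WT-Dry, chosen by sample title. The 46T-Dry group held 1-week-old 46T seedlings that lost water for 1 h on filter paper, in dim light, at 60% humidity and 22 °C, and the WT-Dry group held WT seedlings of the same age treated in the same way. The remaining arrays were 3 of untreated 46T seedlings (46T-CK) and 3 of untreated WT seedlings (WT-CK), also 1 week old. All seedlings grew in long days, with the light phase (16 h) at 24 °C and the dark phase (8 h) at 21 °C. Arrays of 1 group are titled as biological replicates, with no word on whether seedlings came from separate sowings. The limma p-values set each difference against the spread between replicate arrays, estimated from all 12 arrays. 46T is 1 overexpressing line, which some labels also call OV46. The sources used here do not name the promoter of its transgene.

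WRKY46 belongs to the plant family of WRKY transcription factors, which bind short promoter elements called W-boxes and are known for roles in defence and in responses to water loss. Water loss in seedlings triggers calcium and kinase signalling and abscisic acid responses, and changes many genes within an hour. The comparison asks which transcripts differ between the overexpressing line and WT once both have been dehydrated. No probe set was named for WRKY46 in the annotation used here, so its level was not analysed here and the overexpression could not be checked. Whether any of the 8730 probe sets without a gene name here reports on WRKY46 was not determined. The overexpressed gene itself may thus be among the unnamed calls counted below.

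Of 22810 probe sets on the array, 14495 exceeded the 40th percentile of their array on at least 3 of the 12 arrays and were tested, among them 7834 that name a single gene. A probe set is a group of short probes that report on 1 transcript or on several, and its value is a log2 MAS5 signal. Of the tested probe sets, 302 name several genes. Spearman correlations over the tested probe sets were 0.969 to 0.979 among the 46T-Dry arrays, 0.973 to 0.975 among the WT-Dry arrays and 0.949 to 0.973 between arrays of different lines. RCA, the activase of the photosynthetic enzyme Rubisco, lay between 14.74 and 15.18 on all 12 arrays. The root hair expansin gene EXPA7 was above the 40th percentile on 0 arrays and EXPA18, of the same kind, on 8.

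Some measures of labelling and RNA quality separated the lines among the dehydrated arrays, and others overlapped. The poly-A controls, bacterial RNAs added before labelling, averaged 7.83 ± 0.06 in 46T-Dry and 8.33 ± 0.20 in WT-Dry (log2 signal, SD, n = 3 each), with no overlap (exact permutation test, two-sided p = 0.1, the smallest that 3 against 3 arrays can give). The signal of the 3′ GAPDH control probe set exceeded that of the 5′ one by 1.17 ± 0.06 in 46T-Dry and by 0.868 ± 0.044 in WT-Dry (log2, SD, n = 3 each; exact permutation p = 0.1), again with no overlap. The same difference for actin overlapped between the lines, at 4.704 ± 0.26 in 46T-Dry and 4.493 ± 0.165 in WT-Dry (exact permutation p = 0.4). The hybridisation controls overlapped too, at 10.974 ± 0.053 in 46T-Dry and 11.092 ± 0.09 in WT-Dry (exact permutation p = 0.2). On the second principal component of all tested probe sets, which held 27.2% of the variance, the 46T-Dry arrays lay between -16.2 and -13.85 and the WT-Dry arrays between 6.38 and 29.28. WT-CK replicate 1, which takes no part in this comparison but enters the shared estimate of the spread, stood far from the rest at 72.7. Because these measures follow the line, each was also added to the fit as a covariate. In the comparison of dehydrated seedlings, a call that either covariate ended, or a list median whose sign it changed, is given with that value. For untreated seedlings only counts of calls are given with the covariates.

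**Figure D1:**
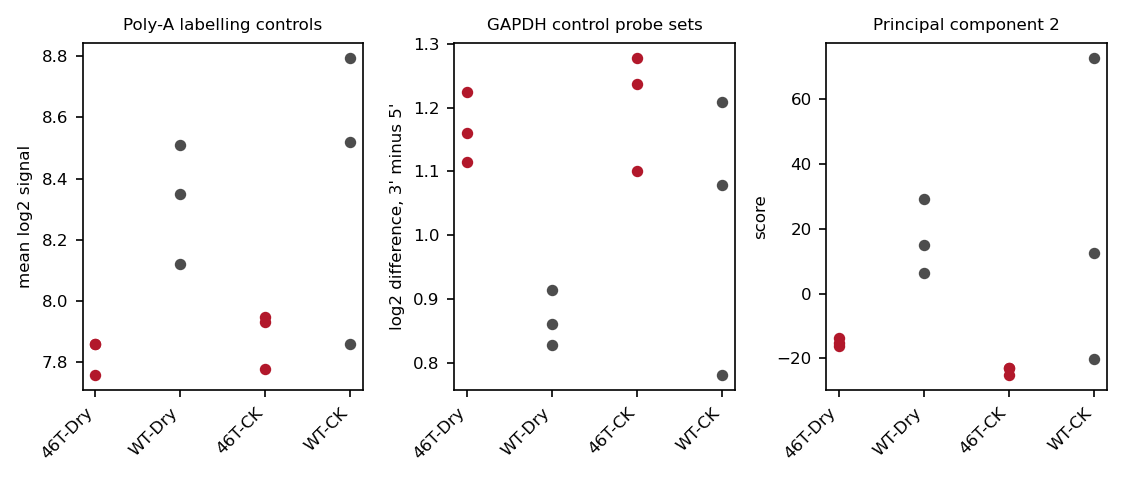
Poly-A control level (mean log2 signal), the log2 difference of 3′ and 5′ GAPDH control probe sets, and the score on principal component 2, with 1 point per array (n = 3 per group; 46T in red, WT in grey). In the dehydrated groups all 3 measures separate 46T from WT without overlap, and WT-CK replicate 1 has the highest component score, 72.7.

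After dehydration 22 probe sets differed between the lines, and all 22 were higher in 46T. They made up 0.152% of the tested probe sets (limma, Benjamini-Hochberg adjusted p below 0.05). Of these, 20 differed at least 2-fold (0.138% of those tested), 11 name a single gene and 11 are unnamed here. No probe set was called lower in 46T, although 539 were lower at an unadjusted p below 0.05 (3.72% of those tested), against 859 higher (5.93%). The 3 values of 46T-Dry lay above the 3 of WT-Dry for 2113 probe sets (14.6%) and below them for 1268 (8.75%). The median log2 difference of all tested probe sets was 0.03, or -0.05 with the poly-A covariate and -0.07 with the GAPDH covariate. The count of calls was 13, 14 and 13 without WT-Dry replicate 3, 46T-Dry replicate 1 and 46T-Dry replicate 2. It was 176 (159 higher, 17 lower) without WT-CK replicate 1 and 87 (81 higher, 6 lower) without WT-CK replicate 2, with all 22 probe sets still called in both. All 22 probe sets stayed higher in 46T under each of the 24 alternatives in which they were tested, and 6 were called in every one.

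**Figure D2:**
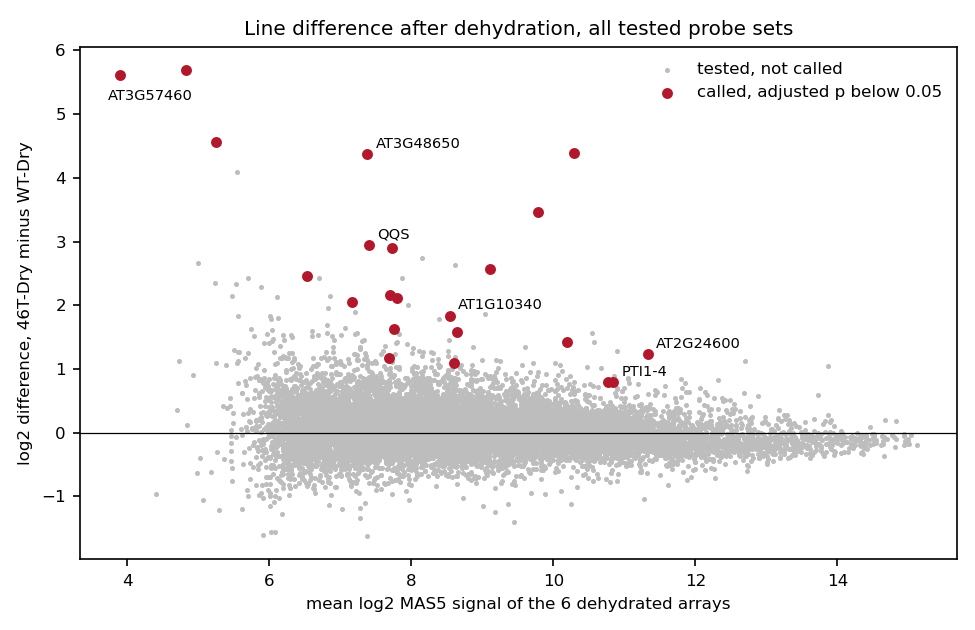
Log2 difference between 46T-Dry and WT-Dry (vertical axis) against the mean log2 MAS5 signal of the 6 dehydrated arrays (horizontal axis), 1 point per tested probe set. The 22 called probe sets, in red, are all above 0, and the 3 largest differences lie at mean signals below 6.

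QQS, an orphan gene of A. thaliana known for an effect on leaf starch content, was among the clearest differences. Its log2 signals were 8.91, 9.10 and 8.62 in dehydrated 46T, against 5.76, 5.77 and 6.24 in dehydrated WT. Every 46T array was more than 2 log2 units above every WT array. The log2 difference was 2.95 ± 0.28 (SE; limma adjusted p = 1.5e-04), and it was called in all 24 alternatives. Every WT value of QQS was at or below the 40th percentile of its array, and the difference was 2.43 with a pseudocount of 32 and 2.47 with values under that percentile raised to it. The other starch genes tested, DPE1, a disproportionating enzyme of starch breakdown, and SBE2.2, a starch branching enzyme, were not called, with log2 differences of 0.20 ± 0.34 and 0.19 ± 0.19 (SE). Both were negative with either covariate, DPE1 at -0.35 with the poly-A level and -0.70 with the GAPDH difference, and SBE2.2 at -0.18 and -0.13. DPE1 was also negative, at -0.06, without WT-Dry replicate 2.

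Both genes known to encode ankyrin repeat proteins among the called probe sets were expressed well above background in both lines. AT1G10340 had log2 signals of 9.32, 9.61 and 9.45 in dehydrated 46T and 8.00, 7.54 and 7.33 in dehydrated WT, with no overlap. Its log2 difference was 1.84 ± 0.23 (SE; 3.58-fold; limma adjusted p = 0.0025, or 0.104 with the GAPDH covariate). AT2G24600 was one of the brightest called genes, at 12.11, 11.79 and 11.93 in dehydrated 46T and 10.74, 10.57 and 10.81 in dehydrated WT. Its log2 difference was 1.24 ± 0.16 (SE; 2.35-fold; limma adjusted p = 0.0033, or 0.126 with the GAPDH covariate). ANK1, the third tested gene of this list, did not pass, at a log2 difference of 0.74 ± 0.28 (limma adjusted p = 0.444), though its values did not overlap either.

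Of the named calls, AT5G25440 and PTI1-4 encode protein kinases of the receptor-like cytoplasmic type, which relay signals from receptors at the cell surface. AT5G25440 had log2 signals of 9.26, 9.52 and 9.55 in dehydrated 46T, against 7.54, 8.13 and 7.89 in dehydrated WT. Its log2 difference was 1.59 ± 0.20 (SE; 3.00-fold; limma adjusted p = 0.0025, or 0.0813 with the GAPDH covariate). PTI1-4 had 11.20, 11.17 and 11.34 in dehydrated 46T and 10.53, 10.47 and 10.32 in dehydrated WT, a small separation at a high level. The difference, 0.80 ± 0.13 on the log2 scale (SE; 1.74-fold), was the smallest of the named calls (limma adjusted p = 0.0199), and it was called in 13 of 24 alternatives. Leaving out any 1 of the 6 dehydrated arrays, or 46T-CK replicate 1 or 2, ended the call of PTI1-4 (limma adjusted p up to 0.162). So did centring each array on its median (0.0538), the poly-A covariate (0.148) and the GAPDH covariate (0.332).

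AT5G25470, which encodes a protein with a B3 DNA-binding domain, had log2 signals of 7.60, 8.15 and 7.54 in dehydrated 46T and 5.34, 5.05 and 5.50 in dehydrated WT. Its log2 difference was 2.47 ± 0.33 (SE; limma adjusted p = 0.0037). Its WT values were all at or below the 40th percentile, and the difference was 1.81 with the pseudocount and 1.36 with low values raised to that percentile. AT1G74440, known as a putative membrane protein of the endoplasmic reticulum, had 8.48, 8.66 and 8.56 in dehydrated 46T and 6.99, 6.79 and 7.02 in dehydrated WT, with closely spaced replicates in both lines. Its log2 difference was 1.63 ± 0.21 (SE; 3.10-fold; limma adjusted p = 0.0025, or 0.0971 with the GAPDH covariate). AT2G27660, a gene for a protein with cysteine- and histidine-rich C1 domains, had 8.24, 8.52 and 8.06 in dehydrated 46T and 7.01, 7.51 and 6.80 in dehydrated WT. Its difference of 1.17 ± 0.21 (SE; 2.25-fold; limma adjusted p = 0.0448) was called in 12 of 24 alternatives. The call of AT2G27660 ended without any 1 of the 46T-Dry or 46T-CK arrays, WT-Dry replicate 1 or 3, or WT-CK replicate 3 (limma adjusted p up to 0.290). It also ended without the filter on signal (0.0805) and with the poly-A (0.358) or GAPDH covariate (0.279).

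The 3 largest named differences belonged to genes with little or no signal in WT. AT3G57460, known as a gene for a metalloendopeptidase-like protein, had log2 signals of 6.71, 6.79 and 6.63 in dehydrated 46T and 2.15, 0.23 and 0.89 in dehydrated WT. AT2G15042, known as a gene for a leucine-rich repeat protein, had 7.34, 7.62 and 7.61 in dehydrated 46T and 1.93, 3.84 and 3.13 in dehydrated WT. AT3G48650, which RefSeq lists as a transcribed pseudogene, had 9.73, 9.95 and 9.03 in dehydrated 46T and 5.36, 5.43 and 4.79 in dehydrated WT. In all 3 genes every 46T value was above the 40th percentile of its array and every WT value was at or below it. AT3G57460 was tested only because of its 46T-Dry arrays, since its 6 untreated values were below the 40th percentile too. The same holds for AT3G48650, which outside 46T-Dry exceeded that percentile only on 46T-CK replicates 2 and 3. A difference was thus built into the selection of both genes. Log2 differences were 5.62 ± 0.88 for AT3G57460 (limma adjusted p = 0.0167), 4.56 ± 0.46 for AT2G15042 (adjusted p = 2.9e-04) and 4.38 ± 0.48 for AT3G48650 (adjusted p = 7.1e-04, or 0.0566 with the GAPDH covariate). Their size depends on how low values are treated. The difference of AT3G57460 was 1.99 with a pseudocount of 32 and 0.30, no longer called, with low values raised to the 40th percentile, that of AT2G15042 was 2.41 and 1.12, and that of AT3G48650 was 3.52 and 3.16. The call of AT3G57460 also ended without WT-Dry replicate 3 or any 1 of the 46T-Dry arrays. Over all named calls, 5 of 11 had every WT-Dry value at or below the 40th percentile, QQS and AT5G25470 being the others.

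**Figure D3:**
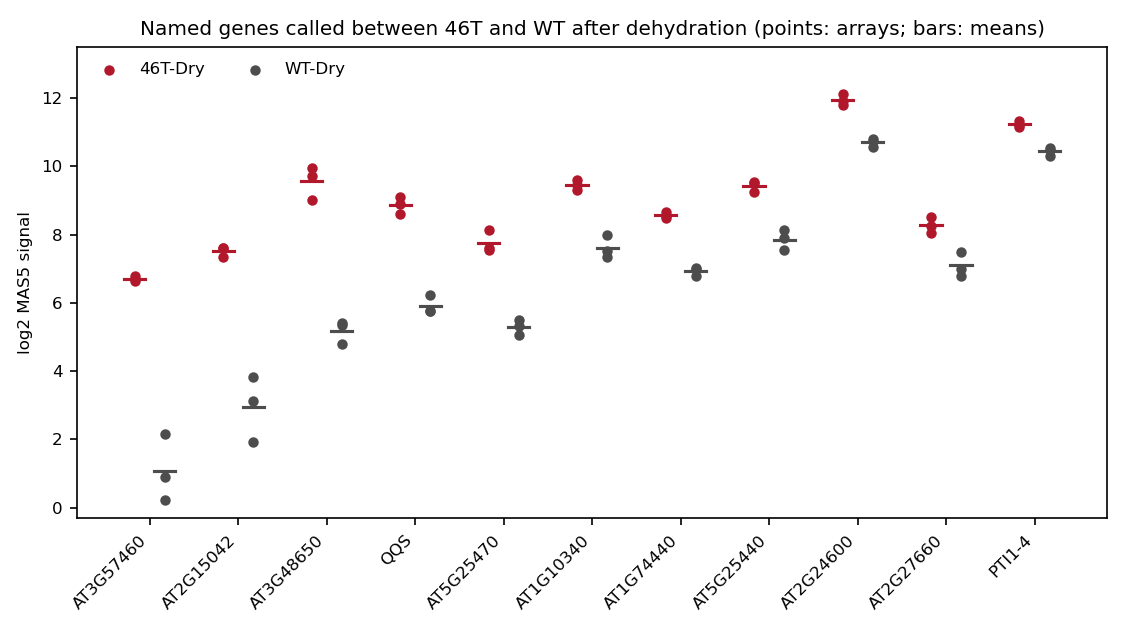
Log2 MAS5 signal of the 11 named genes called between the lines after dehydration, with 1 point per array for 46T-Dry (red, left) and WT-Dry (grey, right) and a bar at each mean of 3 arrays. The groups do not overlap for any of the 11 genes, and WT signals of AT3G57460 and AT2G15042 lie below 4.

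The gene next to AT3G48650 on chromosome 3, AT3G48640, had log2 signals of 7.95, 7.70 and 7.13 in dehydrated 46T and 5.51, 0.58 and 4.41 in dehydrated WT. The groups did not overlap, but the WT arrays were spread over almost 5 log2 units, all at or below the 40th percentile, and the difference of 4.09 ± 0.88 did not pass (SE; limma adjusted p = 0.105). It was 2.13 with the pseudocount and 1.19 with low values raised. It was called in 6 of the 23 alternatives in which it was tested. AT3G48640, too, passed the filter only through its 46T-Dry arrays, since outside them it exceeded the percentile only on 46T-CK replicate 2. The 5 other tested genes that lie directly beside a called gene were not called either, with log2 differences between -0.19 and 0.28. The named called genes lay on chromosomes 1, 2, 3 and 5.

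The same 22 probe sets were then read in untreated seedlings, which were hybridised to other arrays. All 22 were higher in 46T-CK than in WT-CK, and 21 of them without overlap, as were 8.85% of all tested probe sets. In that comparison 14 of the 22 were called, where 0.359% of all tested probe sets were called, 0.262% higher and 0.0966% lower. Both comparisons used 1 shared estimate of the spread. The 14 made up 63.6% of the calls in dehydrated seedlings and 26.9% of the 52 calls in untreated ones. The 52 became 28, 13 and 14 without 46T-CK replicates 1, 2 and 3, and 1640 without WT-CK replicate 2. Of the 52, 21 were still called with the poly-A covariate and 29 with the GAPDH covariate. Among the named genes, QQS (2.68 ± 0.28), AT2G15042 (2.94 ± 0.46), AT3G48650 (3.50 ± 0.48), AT1G10340 (1.61 ± 0.23), AT1G74440 (1.44 ± 0.21) and AT5G25470 (2.47 ± 0.33) were called in untreated seedlings as well (log2 difference ± SE). AT5G25440 (0.99 ± 0.20; limma adjusted p = 0.0585), AT2G27660 (0.92 ± 0.21; adjusted p = 0.0860), AT3G57460 (3.30 ± 0.88; adjusted p = 0.158), PTI1-4 (0.32 ± 0.13; adjusted p = 0.334) and AT2G24600 (0.31 ± 0.16; adjusted p = 0.397) were not. Of the 14 probe sets called lower in untreated 46T, 13 were also lower in dehydrated 46T, where 54.8% of all tested probe sets were higher. Their median log2 difference was -0.28 after dehydration, against -1.29 without it, and 0 were called after dehydration. A choice by the untreated difference favours a larger difference there, so these medians do not show that the falls changed with dehydration.

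**Figure D4:**
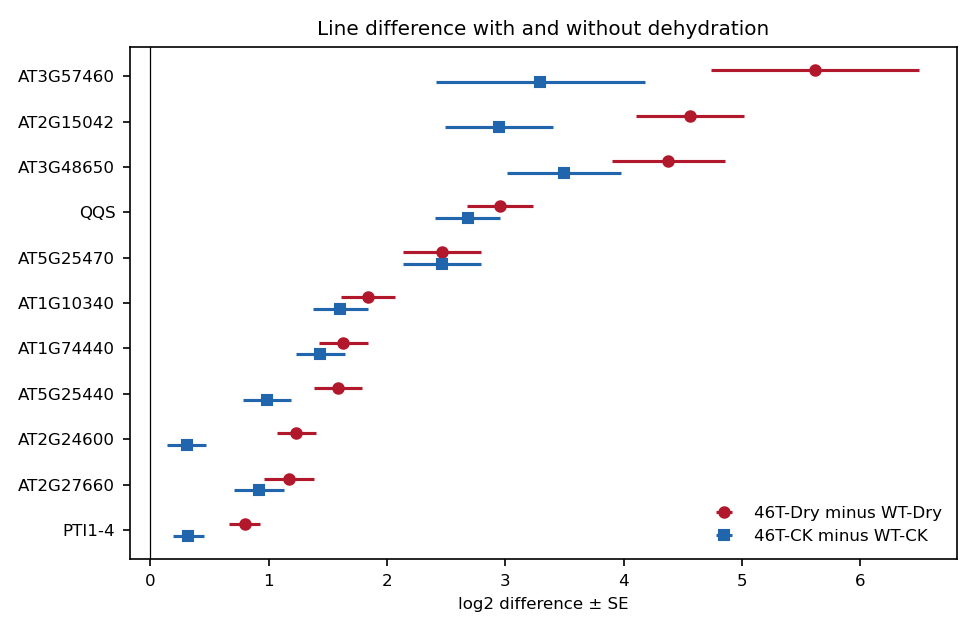
Log2 difference between 46T and WT (horizontal axis, point ± SE of the limma fit, n = 3 arrays per group) for the 11 named genes, in dehydrated (red circles) and untreated seedlings (blue squares). Differences for QQS, AT5G25470, AT1G10340 and AT1G74440 lie close together in both conditions, while that of AT2G24600 is 1.24 after dehydration and 0.31 without it.

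Whether the line difference depended on dehydration was tested directly, as the interaction of line and treatment. No probe set was called by limma at an adjusted p below 0.05 (the smallest adjusted p was 1), and 291 had an unadjusted p below 0.05, or 2.01% of those tested. Of the 22 calls, 18 had a positive interaction estimate and 6 an unadjusted p below 0.05. The smallest of these p-values belonged to an unnamed probe set whose line difference was smaller after dehydration than without it, with an interaction of -2.92 ± 0.55 (limma unadjusted p = 1.2e-04). All 11 named genes had a positive estimate, and 3 of them had an unadjusted p below 0.05. AT2G24600 had the largest support among the named genes, with an interaction of 0.93 ± 0.23 on the log2 scale (SE; 95% interval 0.43 to 1.42; limma unadjusted p = 0.0013). That of PTI1-4 was 0.48 ± 0.18 (95% interval 0.08 to 0.87) and that of AT2G15042 1.61 ± 0.65 (95% interval 0.23 to 3.00). For QQS the interval was -0.57 to 1.11, and for AT5G25470 it was -1.01 to 1.01. A choice of genes by their difference in dehydrated seedlings favours positive interaction estimates, because the interaction uses the same arrays.

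The called genes also differed in how they responded to dehydration within each line. AT2G24600 rose in both lines, by 3.61 ± 0.16 in 46T and 2.68 ± 0.16 in WT (log2, SE). PTI1-4 rose by 1.71 ± 0.13 in 46T and 1.24 ± 0.13 in WT, and AT3G48650 by 3.06 ± 0.48 in 46T and 2.18 ± 0.48 in WT. AT5G25440 (1.03 ± 0.20 in 46T and 0.43 ± 0.20 in WT) and AT1G10340 (0.77 ± 0.23 in 46T and 0.54 ± 0.23 in WT) passed the test in 46T and not in WT. Their responses were not shown to differ between the lines, since the interaction in the limma fit was 0.60 ± 0.29 for AT5G25440 (adjusted p = 1) and 0.23 ± 0.33 for AT1G10340 (adjusted p = 1). In total 5 of the 11 named genes rose in 46T, where 6.69% of tested probe sets did, and 3 rose in WT, where 7.29% did. QQS, AT5G25470, AT1G74440, AT2G27660, AT2G15042 and AT3G57460 did not pass in either line, and QQS was at -0.38 ± 0.28 in 46T and -0.65 ± 0.28 in WT. These within-line comparisons share the dehydrated arrays with the comparison that chose the genes.

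A further 26 probe sets had an adjusted p between 0.05 and 0.10, and 24 of them were higher in 46T. They are described here after their values were seen. Of these, 15 name a single gene, all 15 were higher in both conditions, and 6 were called in untreated seedlings. The log2 differences of the 15 lay between 0.86 and 2.43. The largest was that of AT1G35710, a gene for a leucine-rich repeat kinase, at 2.43 ± 0.45 (limma adjusted p = 0.0524). CHI, a chitinase gene, was at 1.46 ± 0.31 (limma adjusted p = 0.0945). AT5G52750, known as a gene for a protein with a heavy-metal-associated domain, had log2 signals of 11.48, 11.46 and 11.01 in dehydrated 46T and 10.51, 9.26 and 9.51 in dehydrated WT. Its difference of 1.56 ± 0.29 just missed the threshold (limma adjusted p = 0.0524), and it was called in 8 of 24 alternatives. Its neighbour AT5G52760, of the same protein class, was at 2.75 ± 0.85 (adjusted p = 0.357) and was called in 6 of the 23 alternatives in which it was tested. Outside 46T-Dry, AT5G52760 exceeded the 40th percentile only on WT-Dry replicates 1 and 2, so it was tested only because of its 46T-Dry arrays.

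Large differences that did not pass were also read with the array measures added to the fit. A choice of large differences that were not called favours genes with a wide spread between replicates. A call favours a narrow spread, so setting these genes beside the called ones does not test the calls. The 8 largest rises not called, among genes with a bright signal and no overlap, ranged from 1.27 to 2.75. With the poly-A control level as a covariate 6 of the 8 turned negative, and the same 6 did with the GAPDH 3′ to 5′ difference. They were AT5G40450, AT3G05900, AT5G16030, AT4G08310, AT3G29075 and AT1G60200. AT5G40450, for example, had log2 signals of 9.85, 9.85 and 10.10 in dehydrated 46T and 6.29, 7.90 and 7.69 in dehydrated WT. Its untreated WT arrays were at 5.79, 11.84 and 6.99, so that WT replicates of 1 group spanned more than the lines did. Its difference of 2.64 ± 1.04 became -0.42 with the poly-A level and -0.19 with the GAPDH difference. The other uncalled rises in this set, AT5G52750 and AT5G52760, stayed positive, at 1.78 and 4.77 with the poly-A level, where AT5G52760 was called (limma adjusted p = 0.0068).

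The 11 named calls stayed positive with either covariate, between 0.65 and 7.48. With the poly-A level 25 probe sets were called (24 higher, 1 lower), 15 of them among the original 22. With the GAPDH difference 8 probe sets were called, all higher, 7 of them among the original 22. QQS, AT2G15042, AT5G25470 and AT3G57460 were called in both of these fits. AT3G48650 (3.72; limma adjusted p = 0.0566), AT5G25440 (1.58; 0.0813), AT1G74440 (1.56; 0.0971), AT1G10340 (1.54; 0.104) and AT2G24600 (1.06; 0.126) were called with the poly-A level and not with the GAPDH difference. PTI1-4 and AT2G27660 were called with neither. Both covariates were chosen after the array measures had been seen, and in the dehydrated groups neither overlaps between the lines.

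**Figure D5:**
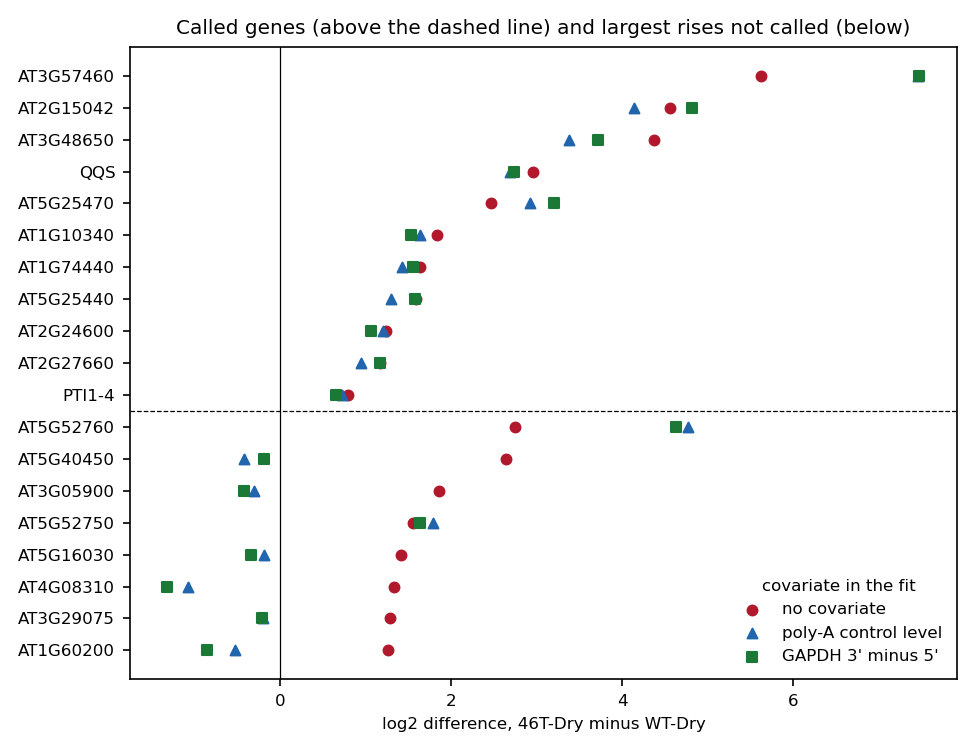
Log2 difference between 46T-Dry and WT-Dry (horizontal axis) without a covariate (red circles), with the poly-A control level (blue triangles) and with the GAPDH 3′ to 5′ difference (green squares), for the 11 named calls above the dashed line and the 8 largest rises not called below it. All 11 calls stay right of 0, and 6 of the 8 others cross to the left of it.

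Falls in 46T were smaller, and none passed. IAGLU, which encodes a glucosyltransferase acting on the auxin indole-3-acetic acid, had log2 signals of 8.44, 8.22 and 7.99 in dehydrated 46T and 9.65, 8.74 and 9.33 in dehydrated WT. The groups did not overlap, and the difference was -1.02 ± 0.22 (SE; limma adjusted p = 0.1). In untreated seedlings IAGLU was called, at -1.15 ± 0.22 (limma adjusted p = 0.0382). Among genes whose brighter group was at or above the median tested value, the next largest falls without overlap were AT4G22490 (-0.85 ± 0.34), AT3G18280 (-0.79 ± 0.21), AT3G14067 (-0.76 ± 0.26), the beta-expansin gene EXPB3 (-0.75 ± 0.26) and AT1G64590 (-0.71 ± 0.18), with limma adjusted p-values from 0.202 to 0.471. Only 25 tested probe sets were at least 2-fold lower in 46T, or 0.172%, against 201 at least 2-fold higher, or 1.39%, whether called or not.

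Gene lists on dehydration and growth held no calls beyond those above among probe sets that name a single gene. The lists could not include the 6359 tested probe sets without a name, so a called member may be missing from them. Of the list on dehydration and abscisic acid, with 18 entries, 2 probe sets were tested. Of the list on salicylic acid and systemic defence, with 17 entries, 2 were tested. Of 7 tested CML genes, which encode calmodulin-like calcium sensors, 0 were called, and 4 had no overlap and were higher in dehydrated 46T, where 14.6% of all tested probe sets were. The list's median log2 difference was 0.53, against 0.03 over all tested probe sets, and -0.44 in untreated seedlings. CML38 had log2 signals of 9.99, 9.61 and 10.25 in dehydrated 46T and 9.51, 9.35 and 8.58 in dehydrated WT. Its difference was 0.80 ± 0.31 after dehydration (limma adjusted p = 0.471) and -1.06 ± 0.31 in untreated seedlings, with an interaction of 1.87 ± 0.44 (SE; limma unadjusted p = 8.9e-04, adjusted p = 1). CML37 (0.82 ± 0.69), CML43 (0.86 ± 0.36) and CML23 (0.53 ± 0.30) were the others without overlap.

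Of 5 tested WRKY genes 0 were called, with a median of 0.11 and a range from -0.01 to 0.39, and the median was -0.18 with the GAPDH covariate. WRKY53, which shares a WRKY subgroup with WRKY46, differed by 0.11 ± 0.27 and WRKY6 by 0.39 ± 0.27, and the values of both overlapped between the lines. WRKY53 was negative with either covariate (-0.33 with the poly-A level, -0.25 with the GAPDH difference) and without 46T-Dry replicate 1 (-0.05). The 8 tested PUB genes, which encode U-box ubiquitin ligases, had 0 calls and a median of -0.15, with PUB24 highest at 0.62 ± 0.19 (limma adjusted p = 0.357). In the dehydration and abscisic acid list the dehydrin genes COR47 (0.54 ± 0.23) and LTI30 (-0.16 ± 0.27) were tested and not called, and their median of 0.19 was -0.25 with the poly-A level and -0.10 with the GAPDH difference. The defence genes GRX480 (0.52 ± 0.33), a glutaredoxin gene induced by salicylic acid, and SAG101 (0.42 ± 0.25), a partner in immune receptor signalling, were not called. PDF1.2, a defensin gene known as a jasmonate marker, was at -1.20 ± 0.87 after dehydration, or 0.18 with the GAPDH covariate, and was not called either. The 3 tested dehydrin and LEA genes had 0 calls and a median of 0.13 (-0.12 with the poly-A level), and the 1 tested NAC gene was at -0.04. FMA, also called FAMA, a regulator of guard cell formation, was the only tested gene of the stomatal list. All 3 of its 46T-Dry values and 2 of its 3 WT-Dry values were at or below the 40th percentile, and it was not called (log2 difference -0.72 ± 0.31; limma adjusted p = 0.490).

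Wall-loosening and plastid genes lay mostly on the low side without a call. Of 18 tested expansin and XTH genes 0 were called, 22.2% were higher in 46T, against 54.8% of all tested probe sets, and 4 lay below WT without overlap, as did 8.75% of all tested probe sets. Their median was -0.23, but 0.12 with the GAPDH difference as a covariate. EXPA4, an alpha-expansin gene, was at -0.71 ± 0.17 (limma adjusted p = 0.179). Of 67 plastid-encoded genes 0 were called, 21 lay below WT without overlap and 4 above it, against 8.75% and 14.6% of all tested probe sets. The median was -0.18, or 0.0054 with the poly-A level as a covariate. The 28 UDP-glycosyltransferase genes had 0 calls and a median of -0.10, with UGT84A3 at -0.76 ± 0.18 (limma adjusted p = 0.172). The 15 cytochrome P450 genes (median 0.01), the 8 tau-class glutathione transferase genes (-0.01), the 5 auxin response genes (0.18) and the 3 reference genes (-0.18) also held 0 calls. With the GAPDH covariate the medians of these 4 lists were -0.05, 0.11, -0.0003 and 0.18, and with the poly-A level -0.03, -0.02, 0.13 and 0.002.

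The 11 called probe sets without a gene name had log2 differences between 0.80 and 5.69 after dehydration, with a median of 2.16, and between 0.71 and 7.30 in untreated seedlings. The 5.69 belonged to a probe set with all 3 WT-Dry values at or below the 40th percentile, and its difference was as low as 1.26 over the alternatives. Of the 11, 8 were called in untreated seedlings too. Their mean log2 signals ranged from 7.67 to 12.47 in dehydrated 46T and from 1.98 to 10.37 in dehydrated WT.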

How the data were processed

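The table deposited by the authors holds 1 log2 value per probe set and array, and per the submitters' processing notes the signals come from MAS5. The sources used here do not state its version. On the linear scale the trimmed mean was about 500.05 on every array (2% cut at each end), so the values were taken as already scaled. The 64 control probe sets were not tested. Group means of all 12 arrays were fitted with limma 3.58.1 in R 4.3.3 (lmFit, eBayes with an intensity trend), two-sided p-values received Benjamini-Hochberg adjustment, and SE come from this fit. The pipeline was tested on simulated data. Names come from the platform annotation, updated through RefSeq's table for TAIR10.1, which matched 13436 of 13513 probe sets with 1 gene.

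Members and lists were chosen with earlier results of these data known. Named genes are all calls naming 1 gene, up to 6 falls and 8 uncalled rises without overlap whose brighter group lies at or above the median tested value, list members, tested neighbours of called genes and WRKY46. AT1G35710, CHI, WRKY53, PDF1.2, FMA, DPE1, SBE2.2, ANK1, CML37 and CML23 were named outside this rule, after their values were seen. Lists without a tested member, and promoter sequences, were not analysed here. The alternatives covered scaling, pseudocount, floor, filter, spread, array weights, the replicate number as a block and each array left out.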

Additional observations from a re-analysis of the deposited data

How the results depend on the processing

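The number of arrays and, for genes near background in WT, the signal limit these results. For dehydrated seedlings the count of called probe sets, 22 as reported, was 36 (35 higher, 1 lower) after quantile normalization, 43 with the pseudocount, 46 with the floor, 206 (191 higher, 15 lower) when the dehydrated groups were fitted without the others, 432 (351 higher, 81 lower) with array weights and 8 with the GAPDH difference as a covariate, and it ranged from 13 to 176 when 1 array was left out. For untreated seedlings, with 52 as reported, it was 81 (40 higher, 41 lower) after median centring, 14 when the untreated groups were fitted without the others, 2926 with array weights and 33 with the poly-A covariate, and it ranged from 13 to 1640 when 1 array was left out. The interaction called 2 probe sets with the floor and 1 each with array weights, the poly-A covariate and the GAPDH covariate, and 0 when any 1 array was left out. The weights ranged from 0.142 to 3.839 and their estimation gave a convergence warning. The cause of these shifts was not tested.

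Same-numbered dehydrated arrays of both lines correlated in their deviations from the group means at 0.188, 0.001 and 0.247, and differently numbered ones at -0.26 to 0.073. Between WT-CK and WT-Dry the same-numbered arrays were at 0.347, 0.294 and 0.073, and the others at -0.362 to 0.071. Whether the numbers pair the arrays was not tested. With the replicate block 24 probe sets were called in dehydrated and 65 in untreated seedlings, and 0 for the interaction.

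Differences that changed sign belonged to genes that were not called. With the poly-A covariate these were AT5G40450 (-0.42), AT3G29075 (-0.20), AT5G16030 (-0.19), AT3G05900 (-0.30), AT1G60200 (-0.53), AT4G08310 (-1.07), AT1G54410 (-0.72), PUB49 (-0.12), WRKY20 (-0.14), WRKY53 (-0.33), DPE1 (-0.35), SBE2.2 (-0.18) and GAPC2 (0.002). With the GAPDH covariate they were AT5G40450 (-0.19), AT3G29075 (-0.21), AT5G16030 (-0.34), AT3G05900 (-0.42), AT1G60200 (-0.86), AT4G08310 (-1.32), AT1G54410 (-0.84), CYP71B34 (-0.0544), WRKY6 (-0.18), WRKY20 (-0.15), WRKY53 (-0.25), DPE1 (-0.70), SBE2.2 (-0.13), PDF1.2 (0.18) and GAPC2 (0.0463). When 1 array was left out, DPE1 ranged from -0.0569 (WT-Dry replicate 2) to 0.4302 and WRKY53 from -0.0548 (46T-Dry replicate 1) to 0.3164.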
